A study of Mus musculus with 31 samples.

Results

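The Hedgehog ligands and core pathway genes described here are 9 genes, taken by name and not by their values. They are the ligand genes Dhh, Shh and Ihh, the receptor gene Ptch1, the signal transducer Smo, the inhibitor Hhip, and the transcription factors Gli1, Gli2 and Gli3. They are 9 of the 47729 genes in the count table, and each matched 1 row by its Ensembl identifier. Of the 9, 8 passed the filter on low counts and were tested, and Shh did not pass.

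Hedgehog ligands are secreted, lipid-modified proteins. In the absence of ligand, Ptch1 keeps the membrane protein Smo inactive; ligand binding to Ptch1 releases Smo, and the GLI factors then change transcription in the nucleus. Gli1, Ptch1 and Hhip are well-known target genes of the pathway, so their RNA levels are widely used as readouts of it, whereas Gli3 acts largely as a repressor when ligand is absent. Hhip sits at the cell surface and binds ligand. In peripheral nerves, Dhh is known as the ligand made by Schwann cells, and the connective tissue sheath of the nerve, the perineurium, as a tissue that responds to it.

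All libraries came from mouse embryos that carried a Sox10:Histone2BVenus transgene, a reporter that puts a fluorescent protein in the nuclei of cells using Sox10 control sequences, with no other allele or treatment named in the labels. The fluorescence guided laser microdissection of nerve pieces from frozen sections, and several sections were pooled for each library. A piece holds every cell in the cut, including axons, connective tissue and vessels, and not only olfactory ensheathing cells (the glia of the olfactory nerve) or Schwann cells. At E16.5 the groups are olfactory nerve of the mucosa, trigeminal nerve, which holds Schwann cells, and the outer and the inner part of the nerve layer that covers the olfactory bulb (olfactory nerve layer, ONL). At E13.5 they are olfactory nerve and undivided ONL, and at E11.5 olfactory nerve. There were 4, 7 and 4 libraries of olfactory nerve from the earliest stage to the latest, 5 of E13.5 ONL, 4 each of outer and inner ONL, and 3 of trigeminal nerve, or 31 in all. At E11.5 and E13.5 there were more pieces than embryos and the labels do not say which pieces share an embryo, so p-values of comparisons with those stages are too small. The spread was estimated over all libraries together, so these pieces also enter the p-values of comparisons within E16.5. Groups at E16.5 may share embryos too, and the fit of all libraries does not pair them.

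The labels of the early libraries disagreed with the study's own table of group means. For each of the 7 mean columns, a non-negative fit over all 31 libraries gave weight to exactly 4, 5, 7 or 3 libraries, with a median misfit of 0.195% to 0.426%, and for 10 of the 31 libraries the group found was not the labelled one. By these means, E13.5 ONL takes all 4 libraries with the E11.5 nerve label, plus replicate 1 of those with the E13.5 nerve label. The other 6 libraries with that label, replicates 2 to 7, make up E13.5 olfactory nerve along with replicate 1 of the E13.5 ONL label, whose replicates 2 to 5 make up E11.5 olfactory nerve. Markers of forebrain and olfactory bulb (Tbr1, Eomes and 4 others) summed to 554.7 to 709.7 CPM (read counts scaled to library size) in the 5 libraries that the means place in E13.5 ONL and to 2.68 to 19.0 CPM in the other early libraries. Early results are given with the grouping of the means and then by label; which grouping is right was not tested otherwise. The E16.5 libraries have the same group in both.

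Total counts per library were 3512627 to 36705535. The trigeminal nerve libraries were deeper (30221586 to 32508725) than the other E16.5 libraries (13379107 to 16800784). Levels are CPM scaled with edgeR's TMM factors, given with the SD between libraries. A count of 3 was taken as the floor, which is 0.0817 to 0.854 CPM depending on the library and covers counting error only. The test was edgeR's quasi-likelihood test, in 1 fit of all libraries, with Benjamini-Hochberg adjustment over the 19332 genes that passed the filter; a gene is said to be called, higher or lower where its adjusted p is under 0.05. In pieces of tissue, a lower level from fewer cells of a type cannot be told apart from less RNA per cell. Every group held RNA of Sox10 and of all 8 genes of the glial marker list.

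Promoter sequence is shown for 3 members, the ligand Dhh and the target genes Ptch1 and Hhip, because these are the ligand and target genes among the members called in both comparisons with trigeminal nerve. RefSeq's table (GRCm38.p6) held a promoter for 7 of the 9 members, and the 250 bases before the start it takes for each gene are printed 5′ to 3′ on the gene's strand. They lie at chr15:98898541-98898790 (Dhh), chr13:63565736-63565985 (Ptch1) and chr8:80058009-80058258 (Hhip), each on the minus strand. The Ptch1 window lies inside the gene span that the annotation gives for Ptch1, so the start used there is an internal one. Capitals mark the 6-letter start of the GLI motif, GACCAC or GTGGTC on the other strand.
Dhh: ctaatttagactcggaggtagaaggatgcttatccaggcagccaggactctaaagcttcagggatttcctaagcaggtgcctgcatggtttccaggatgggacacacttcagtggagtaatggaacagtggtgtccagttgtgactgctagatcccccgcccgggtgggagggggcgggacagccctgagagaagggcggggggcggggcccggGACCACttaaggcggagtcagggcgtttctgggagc
Ptch1: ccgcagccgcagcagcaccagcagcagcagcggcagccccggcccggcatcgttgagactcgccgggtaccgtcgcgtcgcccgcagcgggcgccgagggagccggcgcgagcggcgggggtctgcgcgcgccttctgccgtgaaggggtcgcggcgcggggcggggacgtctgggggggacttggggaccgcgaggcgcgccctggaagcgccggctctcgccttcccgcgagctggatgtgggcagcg
Hhip: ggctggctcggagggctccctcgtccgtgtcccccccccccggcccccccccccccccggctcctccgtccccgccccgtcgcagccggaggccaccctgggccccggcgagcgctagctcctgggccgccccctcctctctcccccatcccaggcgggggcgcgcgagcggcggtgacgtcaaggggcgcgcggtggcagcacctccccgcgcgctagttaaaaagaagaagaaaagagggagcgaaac
The 9-letter GLI motif GACCACCCA, searched on both strands, was in none of the 7 member windows, and in 74 of 32851 windows of the same length (0.225%). Its 6-letter start was in the windows of Dhh and Gli3, once each, and in 9.64% of all windows. The windows of Ptch1 and Hhip are without it, which says only that these letters are not in these 250 bases.

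Dhh (ENSMUSG00000023000, chr15:98891152-98898540) was the only ligand gene above the floor in every library, and its level was highest in trigeminal nerve. There it stood at 39.1, 35.1 and 52.9 CPM in replicates 1 to 3. In E16.5 olfactory nerve it stood at 5.88, 6.68, 5.59 and 4.38 CPM. The 3 trigeminal values lie above every other library of the series, and the next highest is 10.9 CPM in the library labelled E13.5 ONL replicate 1. In outer ONL it stood at 3.45, 2.58, 5.41 and 4.09 CPM. In inner ONL it stood at 1.88, 1.58, 2.51 and 2.83 CPM. Dhh was thus 7.52-fold lower in olfactory nerve than in trigeminal nerve (log2 fold change -2.91 ± 0.59 SE, adjusted p = 0.000383) and 10.9-fold lower in outer ONL (-3.45 ± 0.60, adjusted p = 5.03e-05). The ranges of outer ONL and olfactory nerve overlap, and that difference did not pass (-0.54 ± 0.55, adjusted p = 0.554), nor did the one between inner and outer ONL (-0.81 ± 0.56, adjusted p = 0.437).

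The RNA of the other ligand genes was close to the floor. Shh, the ligand of the floor plate and limb bud, had 8 counts in all. Its highest count was 4, in inner ONL replicate 3, the only library above the floor, and the only early library with any had 2 counts (labelled E13.5 olfactory nerve replicate 1, in E13.5 ONL by the means). It was at 0 in all libraries of trigeminal nerve, E16.5 olfactory nerve and outer ONL. In trigeminal nerve, a count of 0 allows a level of up to 0.0993 CPM. Ihh, the ligand of growing cartilage, had 165 counts in all and passed the floor in 21 libraries, with no library over 1.11 CPM and no call in any comparison. Per kilobase of exon, the Dhh level in trigeminal nerve was 9.63 ± 2.13 CPM, that of Ihh 0.0517 ± 0.0075 CPM, and that of Shh 0. Exons of Dhh share 1653 of 4399 bases with Rhebl1, on the same strand, and Gm49442, on the opposite strand, and the kit does not mark strand. Reads in that stretch thus cannot be assigned with certainty to any of these genes.

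**Figure D1:**
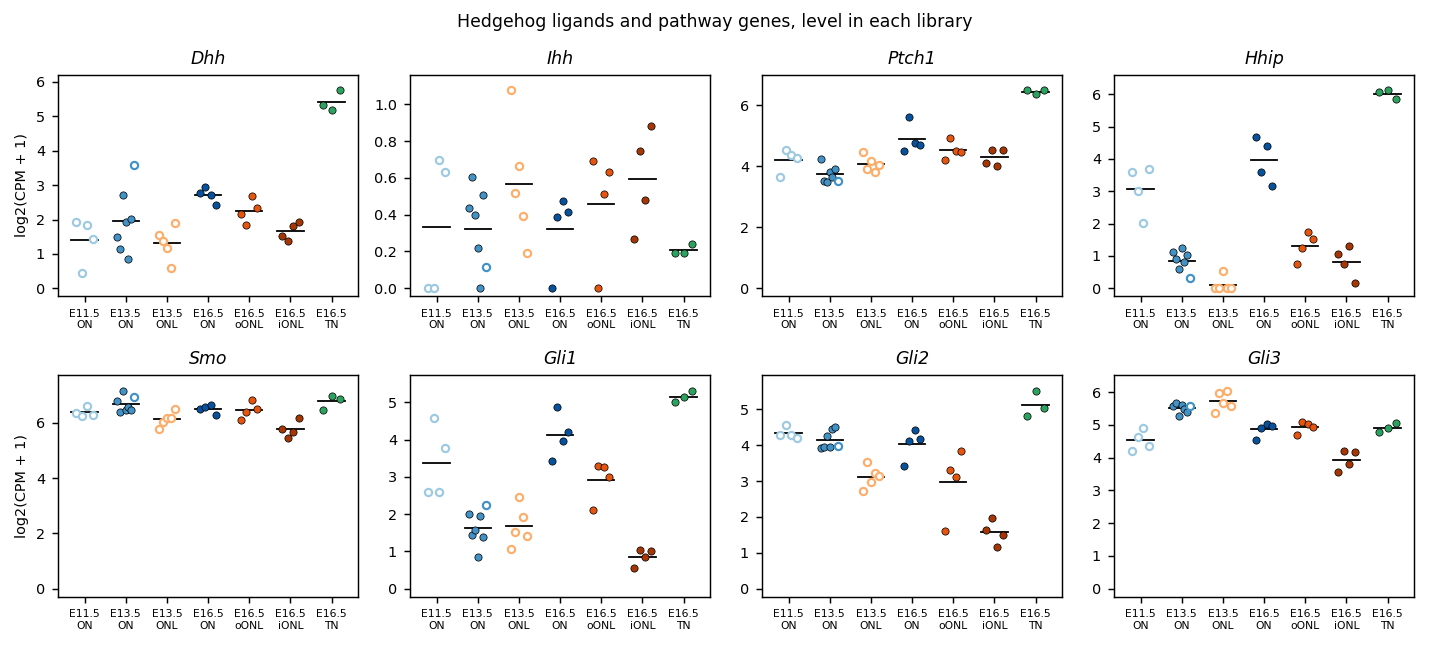
Level of 8 of the 9 members in each of the 31 libraries, as log2(CPM + 1), with the vertical scale set for each gene. Libraries are grouped as in the study's table of means (ON, olfactory nerve; oONL and iONL, outer and inner ONL; TN, trigeminal nerve), black lines are group means, and open points are the libraries whose label names another group. The 3 trigeminal nerve points lie above every other group for Dhh, Ptch1, Hhip and Gli1, and the E13.5 ONL points of Hhip lie at 0 in all but 1 library.

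Sox10 RNA, a marker of both glial types, did not follow Dhh. Sox10 stood at 335 ± 37 CPM in trigeminal nerve, 126 ± 37 in olfactory nerve, 646 ± 61 in outer ONL and 550 ± 133 in inner ONL at E16.5. As a percentage of the CPM of Sox10, a ratio that takes no account of gene length and is read only across groups, Dhh was 11.6, 11.8 and 14.3 in trigeminal nerve. In olfactory nerve it was 6.03, 3.72, 4.59 and 4.21. In outer ONL it was 0.554, 0.382, 0.945 and 0.574, and in inner ONL 0.317 to 0.501. At E16.5 the ranges of trigeminal nerve, olfactory nerve and outer ONL do not overlap, so olfactory nerve stands above outer ONL on this ratio although the Dhh levels themselves overlap. In E13.5 olfactory nerve the ratio was 2.04 to 12.8 with the grouping of the means and 1.26 to 7.49 by label. The value of 12.8, in the library labelled E13.5 ONL replicate 1, lies above trigeminal nerve replicates 1 and 2.

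The mean log2 ratio, with 0.5 CPM added to each gene, was 2.90 lower in outer ONL than in olfactory nerve (exact permutation test, two-sided, p = 0.0286, n = 4 and 4, the smallest it can give). It was 1.35 lower in olfactory nerve than in trigeminal nerve and 4.26 lower in outer ONL than in trigeminal nerve. For these 2 pairs the exact permutation p was 0.0571 in each, which is the smallest that 4 against 3 libraries can give and cannot pass 0.05. Inner ONL was 0.42 lower than outer ONL, with an exact permutation p of 0.143. After Benjamini-Hochberg adjustment over the 4 pairs, p was 0.0762 for the first 3 and 0.143 for the last, so none passed 0.05. The groups also differ in Schwann cell myelin markers (Mbp, Prx, Egr2, Pmp22 and Drp2, all 5 above the floor in every group). These markers summed to 2527 to 3726 CPM in trigeminal nerve and to 137 to 497 CPM in the other E16.5 groups. Their part in the Dhh difference was not tested.

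**Figure D2:**
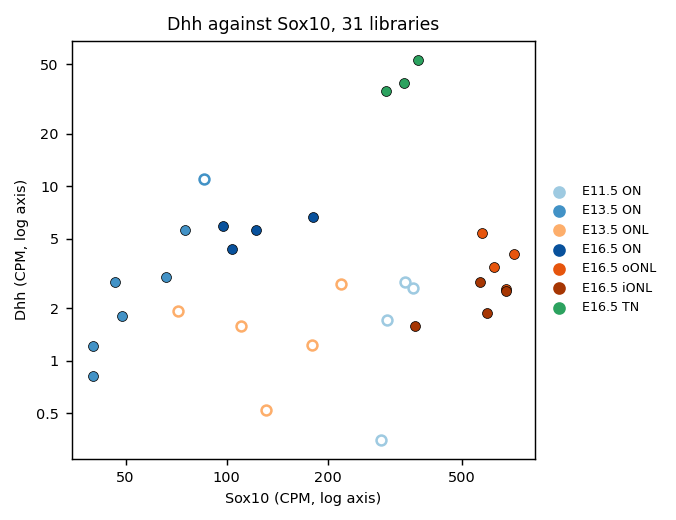
Dhh against Sox10 in the 31 libraries, both in CPM on log axes, coloured by the group in the study's table of means, with open points for libraries whose label names another group. Trigeminal nerve libraries lie at 35.1 to 52.9 CPM of Dhh, and outer and inner ONL libraries lie at 1.58 to 5.41 CPM with more Sox10 in all but 1 of them.

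In the comparison of olfactory with trigeminal nerve at E16.5, which sets the nerve of the olfactory ensheathing cells against one with Schwann cells, 4 of the 8 members tested were lower in olfactory nerve and none was higher. The share of all genes called there was 23.6%, and the median log2 fold change was -1.06 over the members against -0.01 over all genes. Ptch1 (ENSMUSG00000021466, chr13:63508328-63573598), the receptor and target gene, stood at 88.6, 81.9 and 88.4 CPM in trigeminal nerve. In olfactory nerve it stood at 21.7, 47.7, 25.9 and 25.03 CPM, so 1 library lies apart from the other 3 and all 4 lie below trigeminal nerve. Ptch1 was 2.87-fold lower (log2 fold change -1.52 ± 0.25, adjusted p = 2.63e-05). Hhip (ENSMUSG00000064325, chr8:79965851-80058006), the inhibitor, stood at 66.1, 68.5 and 56.6 CPM in trigeminal nerve and at 24.3, 11.1, 19.96 and 8.03 CPM in olfactory nerve. It was 4.02-fold lower (-2.01 ± 0.54, adjusted p = 0.00588), and with the early libraries grouped by label, which changes the shared spread, its adjusted p was 0.0723.

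Of the GLI genes, Gli2 (ENSMUSG00000048402, chr1:118834132-119053619), the main activator, was 2.18-fold lower in olfactory than in trigeminal nerve (15.9 ± 4.4 against 34.7 ± 9.1 CPM, log2 fold change -1.13 ± 0.34, adjusted p = 0.0144). That call was lost with scaling by total count (adjusted p = 0.0758), in a fit restricted to E16.5 (0.0659), without olfactory nerve replicate 1 (0.0567) and without trigeminal nerve replicate 2 (0.109). Gli1 (ENSMUSG00000025407, chr10:127329882-127341974), the target and amplifier, stood at 31.3, 34.1 and 38.78 CPM in trigeminal nerve and at 9.72, 28.3, 14.5 and 17.4 CPM in olfactory nerve. The groups do not overlap, and the difference did not pass in the fit of all libraries (-0.99 ± 0.46, adjusted p = 0.127) but did in a fit of the 2 groups alone (adjusted p = 0.0294). Smo (ENSMUSG00000001761, chr6:29735503-29761365) stood at 89.1 ± 9.2 and 109 ± 19 CPM and Gli3 (ENSMUSG00000021318, chr13:15463235-15730026) at 28.4 ± 4.3 and 29.4 ± 2.8 CPM, and neither passed. Scaling by total count moved the share of called genes that were higher in olfactory nerve from 55.1% to 77.5% and the median over all genes tested from -0.01 to 0.24 on the log2 scale, and the members called kept their direction under both.

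Outer ONL against trigeminal nerve gave larger differences. Here 5 of 8 members were lower in outer ONL and none was higher, against 25.8% of all genes called, with a median log2 fold change of -2.03 over the members against 0.01 over all genes. Hhip stood at 0.690, 1.38, 2.35 and 1.89 CPM in outer ONL, 40.1-fold below trigeminal nerve (log2 fold change -5.32 ± 0.62, adjusted p = 8.35e-08). Gli1 stood at 3.299, 8.86, 8.54 and 6.96 CPM, 5.01-fold lower (-2.32 ± 0.48, adjusted p = 0.000389). Ptch1 was 3.85-fold lower at 22.4 ± 4.9 CPM (-1.94 ± 0.25, adjusted p = 5.01e-07), and Gli2 4.33-fold lower at 7.98 ± 4.59 CPM (-2.11 ± 0.35, adjusted p = 2.07e-05). Together with Dhh these 5 were also called in every fit that left out 1 library. Smo (87.6 ± 18.0 CPM) and Gli3 (29.8 ± 3.5 CPM) did not pass. The split of calls with scaling by total count was 62.7% higher in outer ONL, against 52.5%, with the median over all genes at 0.13 on the log2 scale.

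The comparisons with trigeminal nerve share its 3 libraries. Markers of mesenchyme and fibroblasts (Col1a1, Pdgfra, Lum and 5 others, all 8 above the floor in every group) summed to 23488 to 27627 CPM in trigeminal nerve, 9552 to 16190 in olfactory nerve, 5732 to 11010 in outer ONL and 921 to 2168 in inner ONL. The mean levels of Hhip, Gli1, Gli2, Ptch1, Dhh and Smo at E16.5 have the same order of groups. Over the 31 libraries, which share tissue and stage within groups, the correlation with the summed mesenchyme markers was highest for Dhh (r = 0.748), and within groups it was -0.0402 for Dhh, -0.0115 for Gli1, 0.145 for Ptch1, 0.151 for Hhip and 0.155 for Gli2. The part of these cells in the differences was not tested. Bone markers (Sp7, Ibsp, Bglap, Runx2 and Alpl) summed to 313 to 1066 CPM in trigeminal nerve and to at most 77.4 CPM in the other E16.5 groups, and perineurial markers to 523 to 682 and at most 410 CPM. Over all libraries, Dhh had higher correlations with Schwann cell myelin markers (0.885, within groups 0.201) and bone markers (0.877, within groups 0.167) than with mesenchyme. Ptch1 had 0.828 with Schwann cell myelin markers (within groups 0.240), 0.809 with perineurial markers (-0.0123), 0.761 with bone markers (0.207) and 0.694 with mesenchyme. For Hhip (0.704) and Gli1 (0.744) mesenchyme gave the highest value of the marker lists. The part of these tissues was not tested either.

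**Figure D3:**
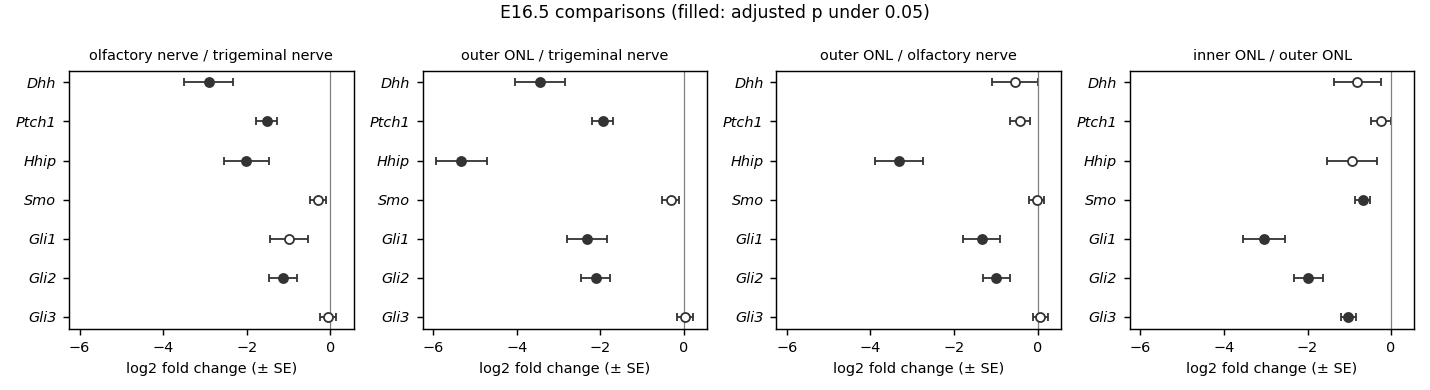
Log2 fold change of 7 members in the 4 comparisons within E16.5, with the standard error, from edgeR's fit of all libraries; filled points have an adjusted p under 0.05. All called differences lie left of 0: Dhh, Ptch1 and Hhip are called in both comparisons with trigeminal nerve and, of these 3, Hhip alone is called between outer ONL and olfactory nerve, while the 3 GLI genes and Smo are called between inner and outer ONL.

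The comparison of outer ONL with E16.5 olfactory nerve sets the nerve layer around the bulb against the nerve of the mucosa, as whole pieces. The ligand gene Dhh did not pass, and 3 members were lower in outer ONL. They were Hhip, Gli1 and Gli2, and the share of all genes called was 22.0%; the median log2 fold change was -0.48 over the members against 0.01 over all genes. Hhip was 9.96-fold lower, at 1.58 ± 0.71 against 15.8 ± 7.6 CPM (-3.32 ± 0.56, adjusted p = 5.13e-05). Gli1 was 2.52-fold lower, at 6.91 ± 2.55 against 17.5 ± 7.9 CPM (-1.34 ± 0.45, adjusted p = 0.0292), and Gli2 1.98-fold lower (-0.99 ± 0.32, adjusted p = 0.0265). The Gli2 libraries overlap. Without outer ONL replicate 1, the library with the lowest Gli2 (2.07 CPM), 1 member was called, Hhip. The Gli1 call was also lost without olfactory nerve replicate 2 (adjusted p = 0.130) or outer ONL replicate 4 (0.0604), and the Gli2 call without olfactory nerve replicate 3 (0.0705) or outer ONL replicate 3 (0.0564). Gli2 was also not called with the E16.5 libraries alone (adjusted p = 0.0603) or in the 2 groups alone (0.115), though with the replicate number as a block in the latter it was (0.0181). With the early libraries grouped by label the adjusted p of Gli1 was 0.0543 and that of Gli2 0.0601, so Hhip alone passed there too. Scaling by total count moved the share of called genes that were higher in outer ONL from 46.4% to 34.1%, and the median over all genes to -0.13 on the log2 scale, with the 3 members called under both. Ptch1 at 22.4 ± 4.9 and 30.1 ± 11.9 CPM did not pass (-0.42 ± 0.23, adjusted p = 0.214). The 2 kinds of piece differ in their cells: the glial markers summed to 18728 to 32936 CPM in outer ONL and 1685 to 3930 in olfactory nerve. Cartilage markers (Col2a1, Acan, Matn1 and 4 others) summed to 325 to 977 and 874 to 5096 CPM, and epithelial markers (Epcam, Cdh1 and 3 others) to 5.25 to 9.42 and 138 to 468 CPM; the part of these in the differences was not tested.

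Within the ONL at E16.5, the GLI genes were lower in the inner than in the outer pieces. According to the paper, these pieces did not separate the ensheathing cell populations of inner and outer ONL. It also reports olfactory bulb tissue in the inner pieces. Here 4 of 8 members were called, all lower in inner ONL, against 14.1% of all genes, with a median log2 fold change of -0.87 over the members and -0.05 over all genes. Gli1 stood at 0.471, 1.05, 0.785 and 1.02 CPM in inner ONL, 8.24-fold below outer ONL (-3.04 ± 0.51, adjusted p = 7.75e-05). Gli2 was 3.95-fold lower at 2.02 ± 0.70 CPM (-1.98 ± 0.35, adjusted p = 0.000138). Gli3, the repressor, was 2.04-fold lower at 14.6 ± 3.1 CPM (-1.03 ± 0.18, adjusted p = 0.000118), and Smo 1.61-fold lower at 54.5 ± 12.2 CPM (-0.68 ± 0.18, adjusted p = 0.00941). Ptch1 (18.9 ± 3.7 CPM) and Hhip (0.841 ± 0.584 CPM) did not pass. Without outer ONL replicate 3, Smo was no longer called (adjusted p = 0.0618). Olfactory sensory neuron markers summed to 950 to 1976 CPM in inner ONL and 84.6 to 549 in outer ONL, and forebrain and bulb markers to 159 to 315 and 6.90 to 60.2 CPM. Mesenchyme markers summed to 921 to 2168 CPM in inner ONL and 5732 to 11010 in outer ONL, and cartilage markers to 216 to 354 and 325 to 977 CPM. The part of all these cells in these differences was not tested.

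By gene, the order of group levels was the same at the top for 5 of the members: trigeminal nerve first, with no library of the next group reaching it, for Dhh, Ptch1, Hhip, Gli1 and Gli2. Most neighbours further down overlap. With the grouping of the means, Hhip went from trigeminal nerve to E16.5 olfactory nerve (15.8 ± 7.6 CPM) and E11.5 olfactory nerve (8.24 ± 4.04), and between these last 2 groups the libraries overlap. It then dropped without overlap to E16.5 outer ONL, and the later groups overlap in turn. Gli3 had another order, with E13.5 ONL (53.0 ± 10.5 CPM) and E13.5 olfactory nerve (44.7 ± 4.3) above all E16.5 groups and inner ONL lowest. By label the order of Gli3 was led by E11.5 nerve (54.5 ± 11.49 CPM) and E13.5 nerve (44.8 ± 4.3), and E13.5 ONL (27.3 ± 11.6) had a lower mean than E16.5 outer ONL, trigeminal nerve and olfactory nerve. Smo ranged least, from 54.5 ± 12.2 to 109 ± 19 CPM in group means. Per kilobase of exon in trigeminal nerve, Smo had the highest level of the members (19.5 ± 3.3 CPM), followed by Dhh, Hhip (7.02 ± 0.69), Gli1 (6.95 ± 0.76), Ptch1 (6.08 ± 0.27), Gli2 (5.05 ± 1.32) and Gli3 (3.07 ± 0.30).

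In olfactory nerve, the target genes among the members, Hhip, Gli1 and Ptch1, were lower at E13.5 than at E16.5 under both groupings. The groupings share replicates 2 to 7 of the E13.5 nerve label and all E16.5 libraries, so they could differ little here. Some E13.5 libraries share an embryo, so the p-values are too small. Of 8 members, 4 were called between E16.5 and E13.5, against 28.8% of all genes (by label also 4, against 25.1%). Hhip stood at 0.249 to 1.38 CPM at E13.5, with a median of 0.866, and was 18.4-fold higher at E16.5 (log2 fold change 4.20 ± 0.49, adjusted p = 2.13e-07; by label 4.32 ± 0.69, 5.47e-05). Gli1 stood at 0.811 to 3.73 CPM at E13.5, with a median of 1.96, and was 7.71-fold higher at E16.5 (2.95 ± 0.40, adjusted p = 2.19e-06; by label 3.16 ± 0.42, 5.64e-06). Ptch1 was 2.40-fold higher (1.26 ± 0.20, adjusted p = 2.92e-05; by label 1.18 ± 0.22, 0.000267). Gli3 was 1.57-fold lower (-0.65 ± 0.16, adjusted p = 0.00257; by label -0.66 ± 0.20, 0.0165). Dhh stood at 0.815 to 10.9 CPM at E13.5 and did not pass (0.57 ± 0.48, adjusted p = 0.399; by label 1.11 ± 0.50, 0.108). Other GLI target genes, from a further list described below, were not called higher at E16.5 under either grouping. Of the 6 tested, 1 was called with the grouping of the means, lower at E16.5 (16.7%), and 0 by label. Grouped by the means, mesenchyme markers summed to 3546 to 6416 CPM at E13.5 and 9552 to 16190 at E16.5, and cartilage markers, from another tissue known for Hedgehog response, to 109 to 653 and 874 to 5096 CPM. Sox10 was 2.19-fold higher at E16.5 (adjusted p = 0.000359; by label 0.157). Their part was not tested.

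The other early comparisons turned on the grouping, and in each of them some libraries share an embryo, so that p-values are too small. From E11.5 to E13.5 in olfactory nerve, with the grouping of the means, 4 of 8 members were called against 36.6% of all genes; by label 2 were called against 17.5%. Hhip stood at 11.05, 7.09, 3.03 and 11.8 CPM at E11.5 (replicates 2 to 5 of the E13.5 ONL label), and was 9.61-fold lower at E13.5 (-3.26 ± 0.48, adjusted p = 4.31e-06). By label the log2 fold change was 2.30 ± 1.05 (adjusted p = 0.133), since 3 of the 4 with the E11.5 nerve label had 0 counts of Hhip. Gli1 stood at 5.06, 23.0, 5.02 and 12.6 CPM and was 5.05-fold lower at E13.5 (-2.33 ± 0.39, adjusted p = 2.66e-05; by label -0.45 ± 0.44, 0.544). Gli3 was 1.98-fold higher (0.98 ± 0.16, adjusted p = 1.95e-05; by label -0.29 ± 0.19, 0.340). Ptch1 was 1.43-fold lower (-0.51 ± 0.21, adjusted p = 0.0493), a call that DESeq2 (adjusted p = 0.0652), the grouping by label (0.423) and most fits without 1 library did not make. By label, Gli2 (1.01 ± 0.33, adjusted p = 0.0356) and Smo (0.59 ± 0.17, 0.0168) were the 2 called. Grouped by the means, Sox10 was 5.58-fold lower at E13.5, at 57.4 ± 18.1 against 321 ± 33 CPM (adjusted p = 8.78e-10; by label 1.61-fold, 0.214). Olfactory sensory neuron markers summed to 1923 to 2403 CPM at E11.5 and 533 to 965 at E13.5, and cartilage markers to 511 to 748 and 109 to 653 CPM. Their part was not tested.

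Between ONL and olfactory nerve at E13.5, p-values are too small as far as pieces of 1 group share an embryo, and whether embryos are also shared between the groups is not given. Hhip, Gli2 and Smo were lower in ONL with the grouping of the means, 3 of 8 against 31.5% of all genes; by label 3 of 8 were called too, against 17.7%, but they were Hhip and Gli1, higher, and Gli3, lower. With the grouping of the means, Hhip had 0 counts in 4 of the 5 ONL libraries and 7 counts (0.455 CPM) in the library labelled E11.5 olfactory nerve replicate 3. Its mean was 0.0910 ± 0.2036 CPM in ONL and 0.851 ± 0.390 in nerve. Its fitted difference was -2.98 ± 0.77 (adjusted p = 0.00311; by label 3.08 ± 0.66, 0.00288). Gli2 stood at 7.80 ± 1.86 CPM in ONL and 16.9 ± 3.3 in nerve, 2.15-fold lower (-1.10 ± 0.28, adjusted p = 0.00241; by label 0.21 ± 0.29, 0.660). Smo was 1.47-fold lower (-0.56 ± 0.15, adjusted p = 0.00516; by label -0.13 ± 0.16, 0.604). Gli1 did not pass with the means (0.12 ± 0.40, adjusted p = 0.864) and was called by label (2.34 ± 0.40, 0.000462), as was Gli3 (0.25 ± 0.15, adjusted p = 0.208; by label -0.71 ± 0.19, 0.0104). Dhh was at 1.61 ± 0.83 CPM in ONL and 3.75 ± 3.55 in nerve (-1.21 ± 0.50, adjusted p = 0.0636), and DESeq2 called it (adjusted p = 0.0426); by label it had the other sign (0.46 ± 0.48, 0.535). Grouped by the means, glial markers summed to 4307 to 6742 CPM in ONL and 489 to 1078 in nerve, and epithelial markers to 3.96 to 12.5 and 230 to 450 CPM; their part was not tested.

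From E13.5 ONL, with its shared embryos and p-values that are too small, to E16.5 outer ONL, with the grouping of the means, 3 of 8 members were called against 41.9% of all genes; by label 2 were called against 35.2%. Hhip was 14.6-fold higher at E16.5 (3.87 ± 0.78, adjusted p = 0.000173; by label -2.08 ± 0.75, 0.0318), with the 4 libraries at 0 and the 1 with 7 counts named above on the E13.5 side. Gli1 was 2.80-fold higher (1.49 ± 0.44, adjusted p = 0.00708; by label -0.52 ± 0.45, 0.383). Gli3 was 1.78-fold lower (-0.83 ± 0.17, adjusted p = 0.000205; by label 0.13 ± 0.21, 0.659). By label, Gli2 was called with Hhip (-1.20 ± 0.35, adjusted p = 0.00820), while with the means its difference was 0.02 ± 0.31 (adjusted p = 0.973). Dhh did not pass under either grouping (1.25 ± 0.55, adjusted p = 0.0671; by label 0.11 ± 0.55, 0.900).

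Whether the difference between ONL and olfactory nerve changed from E13.5 to E16.5 was tested directly as a difference of differences, again with p-values that are too small as far as pieces of 1 group share an embryo. With the grouping of the means, edgeR called 0 of 8 members at an adjusted p under 0.05 and 3 had an unadjusted p under 0.05, against 12.3% of all genes called. Gli1 came to -1.46 ± 0.60 (adjusted p = 0.116) and Hhip to -0.34 ± 1.39 (adjusted p = 0.933). By label, an alternative added after the data were seen, Gli1 (-3.68 ± 0.63, adjusted p = 0.000250) and Hhip (-6.39 ± 1.05, adjusted p = 0.000161) were called, 2 of 8 against 12.5%.

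**Figure D4:**
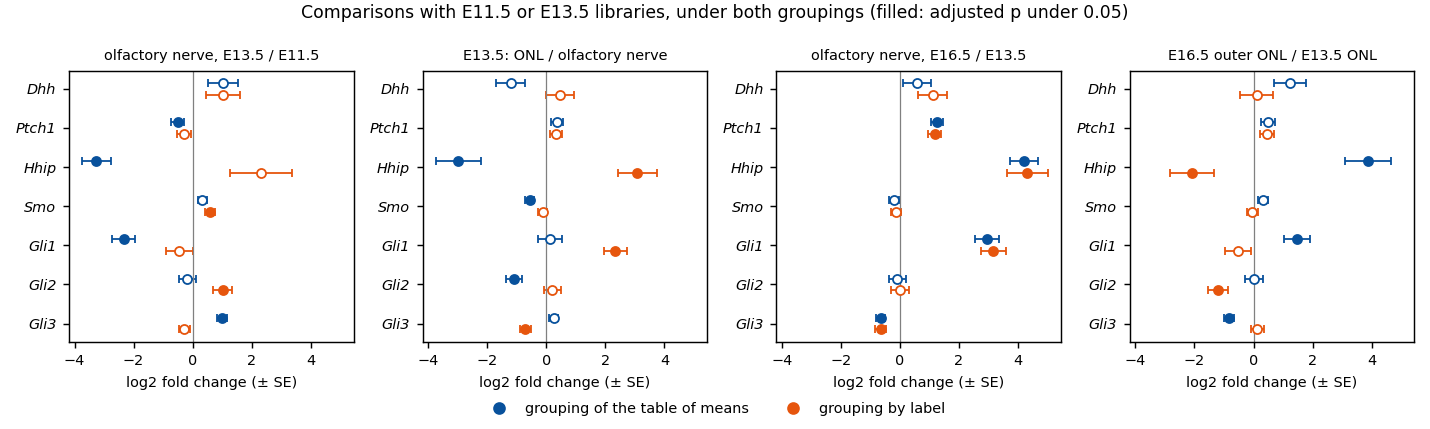
Log2 fold change of 7 members in the 4 comparisons that use E11.5 or E13.5 libraries, with the standard error, under the grouping of the study's table of means (blue) and under the labels (orange); filled points have an adjusted p under 0.05. The pairs of points lie together for olfactory nerve from E13.5 to E16.5, where the groupings share most libraries. Those of Hhip lie on opposite sides of 0 in the other 3 panels.

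A further list of 26 pathway genes, written from general knowledge, held genes for ligand release, co-receptors, regulators at the cilium, and other GLI targets; 24 of them were tested. Olfactory nerve against trigeminal nerve gave 7 called (29.2%, close to the 23.6% of all genes), 4 higher and 3 lower in olfactory nerve. Among co-receptors, which help ligand bind, Cdon was 2.75-fold lower (adjusted p = 0.00159) and Boc 2.66-fold higher, at 164 ± 47 against 61.5 ± 11.8 CPM (adjusted p = 0.00192). Lrp2, an endocytic receptor, had 21 to 33 counts in each olfactory nerve library (1.58 ± 0.39 CPM) and at most 1 count in a trigeminal one. Stk36, a kinase listed here among the regulators, was 2.80-fold higher (adjusted p = 0.000101). Foxl1, a GLI target, was 5.15-fold lower (0.264 ± 0.247 against 1.404 ± 0.832 CPM, adjusted p = 0.0366), although its libraries overlap. Bcl2, a survival gene and GLI target, was 1.98-fold higher, at 60.7 ± 10.4 against 30.6 ± 7.2 CPM (adjusted p = 0.00367).

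Outer ONL against trigeminal nerve gave 10 called among these genes (41.7%, against 25.8% of all genes), 2 higher and 8 lower. Cdon was 8.33-fold lower (adjusted p = 8.46e-08), Gas1, another co-receptor, 3.09-fold lower (adjusted p = 0.000163), and Ccnd1, the cyclin of early cell cycle, 3.68-fold lower (adjusted p = 3.55e-08). All 6 tested genes of the other GLI targets were called, 5 lower and 1 higher. The lower ones include Foxf1, at 0.133 ± 0.085 against 2.91 ± 0.94 CPM (adjusted p = 0.00808), and Foxl1 (adjusted p = 0.0241). The higher one was Foxf2, at 5.31 ± 1.43 against 0.688 ± 0.407 CPM (adjusted p = 0.00775). Thus the target genes did not all move one way.

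Outer ONL against olfactory nerve gave 11 called (45.8%, against 22.0% of all genes), 3 higher and 8 lower. Foxf2 was higher, at 5.31 ± 1.43 against 0.130 ± 0.135 CPM (adjusted p = 4.92e-05). Boc was 4.04-fold lower (adjusted p = 1.04e-05), Gas1 3.13-fold lower (adjusted p = 0.000107) and Cdon 3.03-fold lower (adjusted p = 0.000618), all of them co-receptors. Bcl2 was 3.24-fold lower (adjusted p = 2.01e-06), and Lrp2 had at most 1 count in an outer ONL library. Inner against outer ONL gave 6 called (25%, against 14.1%), 1 higher and 5 lower. Mycn, a growth regulator, was 3.49-fold higher in inner ONL (adjusted p = 1.79e-05). Boc was 2.79-fold lower (adjusted p = 0.000947), Gas1 2.23-fold lower (adjusted p = 0.00861) and Hhat, which adds palmitate to the ligands, 1.99-fold lower (adjusted p = 0.00334). Scube1 and Scube3, whose family helps release ligand, were 2.16-fold and 2.13-fold lower (adjusted p = 0.00211 and 0.0438). With the early libraries grouped by label in the same fit, the comparisons with trigeminal nerve kept 4 (olfactory nerve) and 6 (outer ONL) calls among the 24, outer ONL against olfactory nerve 9 and inner against outer ONL 3. The shares of all genes called by label were 17.8%, 20.3%, 16.1% and 8.58% in that order, and those of the 24 were 16.7%, 25%, 37.5% and 12.5%. Of the genes named here, the calls lost were those of Boc, Foxl1 and Bcl2 in olfactory nerve against trigeminal nerve, Foxf2, Foxl1 and Gas1 in outer ONL against trigeminal nerve, Gas1 in outer ONL against olfactory nerve, and Boc, Gas1 and Scube3 in inner against outer ONL.

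With the grouping of the means, the early comparisons called 13, 9, 10 and 13 of the 24 (ONL against nerve at E13.5, nerve E13.5 against E11.5, nerve E16.5 against E13.5, and outer ONL against E13.5 ONL), and by label 3, 4, 6 and 12. With the means these are 54.2%, 37.5%, 41.7% and 54.2%, against 31.5%, 36.6%, 28.8% and 41.9% of all genes. By label they are 12.5%, 16.7%, 25% and 50%, against 17.7%, 17.5%, 25.1% and 35.2%, so the first 3 are at or below the share over all genes. Pieces of 1 group that share an embryo make these p-values too small as well. Gas1 was highest in E13.5 olfactory nerve (98.8 ± 29.0 CPM) and 18.2-fold lower in E11.5 nerve (adjusted p = 1.69e-11; by label 3.15-fold, 0.0898). In E13.5 ONL it was 3.42-fold lower (adjusted p = 1.41e-06; by label 2.84-fold, 0.0848), and in E16.5 nerve 2.80-fold lower (adjusted p = 0.000111; by label 2.42-fold, 0.159). Boc rose 4.50-fold from E11.5 to E13.5 in nerve (adjusted p = 9.61e-07; by label 2.27-fold, 0.0631) and was 2.71-fold lower in E13.5 ONL than in nerve (adjusted p = 5.76e-05; by label 2.19-fold, 0.0505). Ccnd1 was 2.49-fold lower in E13.5 ONL than in nerve (adjusted p = 2.18e-07; by label 2.03-fold, 0.00187), and Bcl2 was 2.58-fold higher in E13.5 than in E11.5 nerve (adjusted p = 8.77e-06; by label 1.41-fold, 0.264).

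Foxf2 stood at 4.20 ± 1.82 CPM in E13.5 ONL and at 3 counts or fewer in each E13.5 olfactory nerve library (adjusted p = 1.65e-06; by label 0.394), and in E11.5 nerve it was at 2.63 ± 2.81 CPM (adjusted p against E13.5 nerve 2.67e-05; by label 0.154). Lrp2 was higher in E13.5 nerve (1.83 ± 0.77 CPM) than in E13.5 ONL (adjusted p = 0.0116; by label 0.138) and E11.5 nerve (adjusted p = 0.00771; by label 0.0239). Scube2 was 8.79-fold higher in E13.5 ONL than in nerve (adjusted p = 0.00345; by label the sign was opposite, 0.112), and Foxl1 was 3.56-fold lower in E13.5 than in E11.5 nerve (adjusted p = 0.0274; by label the sign was opposite, 0.537). From E13.5 to E16.5 in nerve, Scube3 was 2.68-fold lower (adjusted p = 0.00119; by label 0.00438), Cdon 2.42-fold lower (adjusted p = 0.00145; by label 0.00519) and Gpr161, a ciliary inhibitor of the pathway, 1.81-fold lower (adjusted p = 0.00332; by label 0.00192). Evc, a ciliary partner of Smo, was 1.80-fold higher (adjusted p = 0.000898; by label 0.000707), and its partner Evc2 1.75-fold higher (adjusted p = 0.000429; by label 0.000702).

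From E13.5 ONL to E16.5 outer ONL, Evc and Evc2 were 3.12-fold and 3.14-fold higher (adjusted p = 1.59e-07 and 1.73e-08; by label 3.03e-06 and 5.95e-08). Mycn was 4.63-fold lower (adjusted p = 1.01e-07; by label 5.98e-06), Cdon 4.53-fold lower (adjusted p = 3.55e-06; by label 5.10e-07), Scube3 3.83-fold lower (adjusted p = 3.88e-05; by label 0.000112) and Gpr161 3.82-fold lower (adjusted p = 1.23e-07; by label 0.00545). These 6 were called in the same direction under both groupings.

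**Figure D5:**
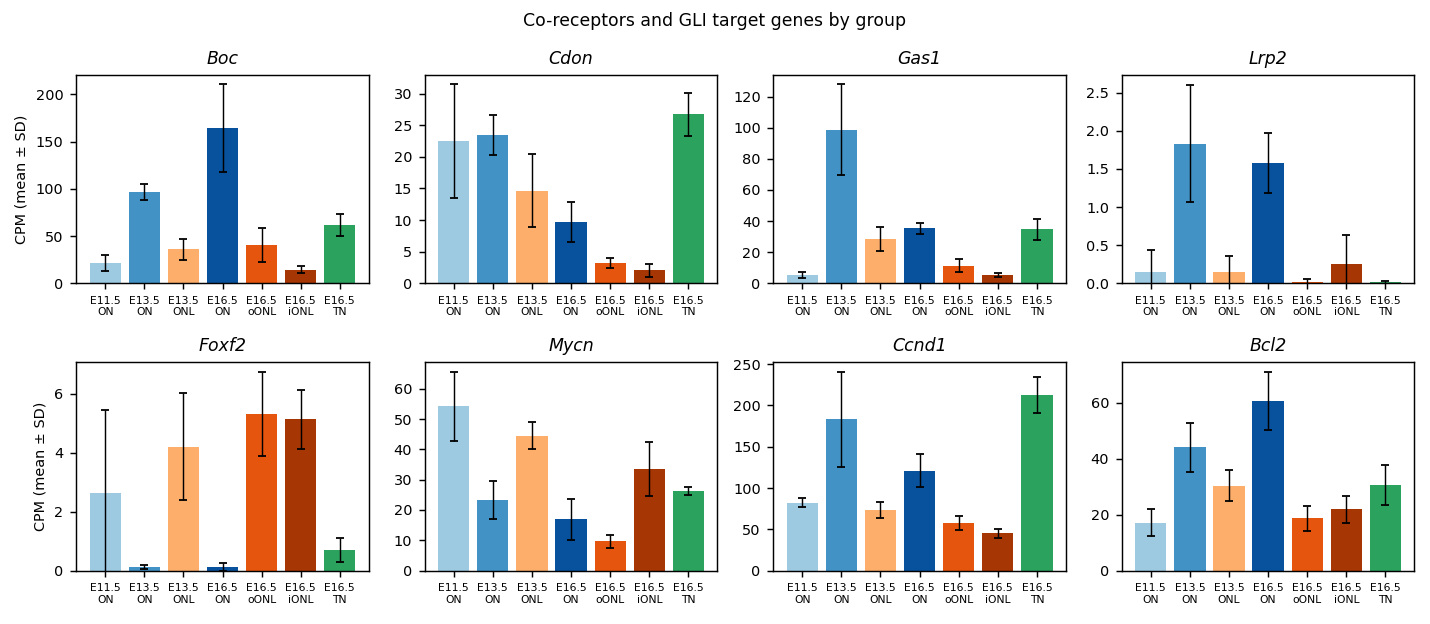
Mean CPM with SD of 8 genes of the further pathway list in the 7 groups of the study's table of means (ON, olfactory nerve; oONL and iONL, outer and inner ONL; TN, trigeminal nerve). Cdon and Ccnd1 are highest in trigeminal nerve, Boc, Gas1, Lrp2 and Bcl2 in olfactory nerve at E13.5 or E16.5, Foxf2 in E16.5 outer ONL, and Mycn in E11.5 olfactory nerve.

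The genes with the most similar pattern were sought by Pearson correlation of log2(CPM + 1) over the 31 libraries. Libraries of a group share tissue and stage, and at E16.5 also have a similar depth. For Dhh they were Tnni1 (r = 0.931, Spearman rho 0.787), Clec3b (0.912, 0.782), Adamtsl5 (0.910, 0.782), Olfml2b (0.897, 0.713) and Mag (0.896, 0.736), which encodes a myelin protein. Without the 3 trigeminal nerve libraries these correlations were 0.612 to 0.751 (n = 28). For Ptch1 they were Art3 (0.922, 0.809), C1qtnf3 (0.906, 0.583), Fabp4 (0.905, 0.747), P4ha1 (0.897, 0.737) and Mfap5 (0.896, 0.606), with 0.660 to 0.756 without trigeminal nerve. For Gli1 they were Cfp (0.885, 0.871), Spon2 (0.877, 0.798), Slc50a1 (0.868, 0.812), Parp3 (0.864, 0.775) and Dpep1 (0.860, 0.821), with 0.799 to 0.862. For Hhip they were Lrrn4cl (0.914, 0.856), Esyt1 (0.889, 0.812), Gm27204 (0.878, 0.724), Tmc6 (0.877, 0.865) and Kcna6 (0.873, 0.741), with 0.724 to 0.836. No member was among the 5 of another.

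Among the members themselves, Hhip and Gli1 were the pair with the highest correlation over all libraries (r = 0.851, rho = 0.752). Taken as deviations from the group means, that is within groups, it was -0.019 (rho = -0.032), so it rests on differences between groups. Ptch1 and Gli1 had r = 0.764 over all libraries and 0.434 within groups (rho = 0.396), and 0.327 without the 2 libraries farthest from the median. Within the 15 E16.5 libraries it was 0.828, and olfactory nerve replicate 2 is the highest library of its group for both genes. Dhh and Smo had 0.516 within groups, while Dhh had -0.160 with Ptch1, -0.162 with Hhip and -0.214 with Gli1.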

How the data were processed

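RNA was measured in 31 libraries (SMART-Seq v4 amplification, Nextera XT, no strand marking). The authors deposited raw read counts per Ensembl gene. Per the submitters' processing notes and the study's methods, reads were checked with FastQC, aligned with TopHat2 2.1.0 to mm10 and counted with HTSeq. From 47730 rows, 1 row without a gene identifier was left out. Total counts were 3512627 to 36705535, and a count of 3, used as a floor, covers counting error only. Gene symbols and exon lengths came from GENCODE M21 (GRCm38) for 47224 genes.

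Counts were tested with edgeR 4.0.16 (R 4.3.3, limma 3.58.1): TMM scaling, filterByExpr by group, a quasi-likelihood fit of all 31 libraries, and Benjamini-Hochberg adjustment at 0.05 over 19332 genes. E16.5 groups came from the labels. Early libraries were grouped as in the study's table of means, with the labels as an alternative. P-values set a difference between groups against the spread between these samples, which are pieces and not embryos. Some early pieces share an embryo, which the fit does not model. Its spread estimate is shared by all groups, so these pieces also enter the p-values of E16.5 comparisons. Genes left out of the further pathway and marker lists are not reported here. The members, lists and tests were chosen with earlier results of these data known.

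Named genes were the 9 members, up to 6 called genes a comparison from the further pathway list ranked by absolute log2 fold change among those whose higher group averaged 1 CPM or more, and for Dhh, Ptch1, Gli1 and Hhip the 5 genes with the highest Pearson correlation of log2(CPM + 1). Ratios of Dhh to Sox10 used 0.5 CPM added to each gene and exact permutation tests (SciPy 1.17.1). Alternatives were DESeq2 1.42.0, scaling by total count, no filter, grouping by label, E16.5 libraries alone, 2 groups alone with and without a replicate block, and leaving out each library. Outer ONL and olfactory nerve libraries with the same E16.5 number deviated together (correlations 0.361, 0.286, 0.489 and 0.231 over 12234 genes). They were paired only in the fits with a replicate block. The main fit had no block, so its E16.5 p-values take no account of embryos shared between groups. In data simulated for olfactory against trigeminal nerve with 19332 genes, edgeR recovered 97 of 100 genes changed 4-fold and 22 of 100 changed 2-fold, and called 3 unchanged genes. The simulation gave every gene the same spread, changed only 200 genes and had no shared embryos. Its counts are thus not error rates of the real data.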

Additional observations from a re-analysis of the deposited data

Results flagged for a closer look

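Within groups of 4 to 7 libraries, 48 combinations of member and group were examined with Dixon's ratio, the gap of an extreme library to its neighbour as a share of the group's range. Chance alone gives about 1 in 20, and 3 stood out. Ptch1 in E16.5 olfactory nerve replicate 2 was 47.7 CPM, against 21.7 to 25.9 CPM in the other 3 libraries. Hhip was 0.455 CPM in the library labelled E11.5 olfactory nerve replicate 3, where the other 4 libraries that the study's means place in E13.5 ONL were at 0. Gli2 was 22.7 CPM in the library labelled E13.5 ONL replicate 3, against 17.5 to 18.4 CPM in the other 3 that the means place in E11.5 olfactory nerve.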

How the results depend on the processing

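The grouping of the early libraries changed more results than any other alternative. By label, the members called were 1 for outer ONL against olfactory nerve, 2 for olfactory nerve E13.5 against E11.5 and 2 for the difference of differences. The further pathway genes called were 6 (outer ONL against trigeminal nerve), 4 (olfactory against trigeminal nerve), 3 (inner against outer ONL), 3 (E13.5 ONL against nerve), 4 (nerve E13.5 against E11.5) and 6 (nerve E16.5 against E13.5). All genes called by label were 1658 for inner against outer ONL (2733 with the means), 3421 for E13.5 ONL against nerve (6087) and 3380 for nerve E13.5 against E11.5 (7071). Log2 fold changes that reversed by label are given without Ihh, whose counts are near the floor. They were Dhh 0.46, Hhip 3.08, Gli2 0.21 and Gli3 -0.71 in E13.5 ONL against nerve. In nerve E13.5 against E11.5 they were Hhip 2.30, Gli2 1.01 and Gli3 -0.29. In outer ONL against E13.5 ONL they were Smo -0.0386, Hhip -2.08, Gli1 -0.52, Gli2 -1.20 and Gli3 0.13. In the difference of differences they were Gli2 -1.20, Gli3 0.79 and Dhh -0.999. The cause was not tested.

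With scaling by total count, Gli2 in outer ONL against E13.5 ONL came to -0.0311. Leaving out 1 library in turn, members called for outer ONL against olfactory nerve ranged from 1 to 3, Gli1 in E13.5 ONL against nerve from -0.24 to 0.29, and Gli2 in outer ONL against E13.5 ONL from -0.33 to 0.33. Hhip ranged from -6.96 to -2.39 in E13.5 ONL against nerve and from 3.27 to 7.84 in outer ONL against E13.5 ONL, both largest sizes, which depend on the prior count, without the library labelled E11.5 olfactory nerve replicate 3, the only one of its group with Hhip counts. Ptch1 in nerve E13.5 against E11.5 lost its call in 9 of 11 such fits.

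In fits of the 2 groups alone, outer ONL against olfactory nerve gave 3923 genes without and 5103 with the replicate number as a block, and Gli2 an edgeR adjusted p of 0.115 and 0.0181; Hhip and Gli1 were called in both. For the other E16.5 pairs, the labels do not say whether equal numbers mean the same embryo. Deviations of libraries with equal numbers had correlations of both signs, as in inner against outer ONL (0.263, 0.281, -0.165 and -0.143). The paper describes trigeminal nerve cut from the same sections as the olfactory pieces, so the groups of these pairs may share embryos too. There the fits without and with the block gave 4836 and 3283 genes for outer ONL against trigeminal nerve, 4686 and 3100 for olfactory against trigeminal nerve, and 2831 and 2721 for inner against outer ONL; with the block, the comparisons with trigeminal nerve leave out replicate 4 of the other group. Gli1 in olfactory against trigeminal nerve was called in both (-0.93 and -1.07, edgeR adjusted p = 0.0294 and 0.0417), and Gli2 in outer ONL against olfactory nerve was the only member whose call the block changed. Depth limits Shh, Ihh and, at E13.5, Hhip, whose counts are near the floor.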
